A study of Mus musculus with 6 samples.

Results

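The 9 lymphocyte homing genes described here were taken by their symbols from the 41255 genes of a table of normalized read counts. They were *Selplg*, *Cd44*, *Cxcr4*, *Ccr7*, *S1pr1*, *Klf2*, *Cytip*, *Cyth1* and *Foxo1*. The genes were chosen with their R98S and WT values in these same libraries already known, so their values are given as a description, without p-values, and no test rests on the choice. Messenger RNA was sequenced from 6 clones of Ba/F3, an interleukin-3-dependent mouse lymphoid cell line. In 3 of them (WT clones 28, 29 and 36) the human WT form of the ribosomal protein gene *RPL10* was expressed from a retroviral vector, and in the other 3 (R98S clones 11, 13 and 35) its R98S mutant, an alteration seen in T-cell leukemia. In both groups endogenous mouse *Rpl10* was knocked down with a short hairpin RNA, and all cells received cycloheximide, which stops translation, at 100 μg/ml for 5 min before they were pelleted. Each clone was grown from a single cell, so a difference between groups is read against the spread between 3 independent monoclonal lines.

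Lymphocytes leave the blood in steps. Selectins and their carbohydrate ligands slow the cell on the vessel wall, chemokine receptors then signal inward, and integrins arrest the cell before it crosses. Inside the tissue, Cxcr4 and Ccr7 guide the cell along chemokine gradients, and S1pr1, a receptor for the lipid sphingosine 1-phosphate, draws it back out towards blood and lymph. The transcription factors Foxo1 and Klf2 are known to drive several of these receptors in naive lymphocytes.

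The libraries held 21786776 to 24204991 reads assigned to genes, with reads at 18890 to 19958 genes. The first principal component (61.2% of the variance) separated the WT from the R98S clones, and WT clone 36 and R98S clone 13 stood apart from the other clones of their group on the second (13%). *Rpl10* had normalized counts of 1900.4 to 3156 in WT and 1883 to 3028 in R98S clones. Since the knockdown is common to both groups, this does not check the labels. Of 8 B-lineage markers, 5 (*Pax5*, *Vpreb1*, *Igll1*, *Rag1* and *Blnk*) had at most 3 reads in every clone, while *Cd79a* and *Cd79b* were expressed, the latter called higher in R98S clones. The summed B-lineage markers ran from 1286 to 1399.8 in WT and from 1639 to 1958 in R98S clones, and the summed 8 T-lineage markers from 64.5 to 120.1 and from 195 to 249. Of the latter, *Cd3d*, *Cd247* and *Lck* were called higher in R98S clones, and *Cd3e*, *Cd4* and *Thy1* had no more than 3 reads in any clone. *Cd3g*, too low to be tested, was at 3.07, 3.22 and 43.0 in WT and at 0.938, 1.02 and 1.85 in R98S clones. Over all tested genes 10.7% were called higher and 13.1% lower. The 8 mast cell and myeloid markers summed to 190.5 to 278 in WT and 78.6 to 486 in R98S clones with *Kit* and *Fcer1a* at 1 read or none. In that list *Lyz2* was called lower, at 4.10, 24.7 and 43.0 in WT and 0.938, 0 and 1.85 in R98S clones. *Itgam* (11.3 to 15.0 and 0 to 4.08) and *Mpo* (2.0015 to 12.3 and 0 to 1.02) were too low to be tested. *Cpa3* was at 10.2, 103 and 101 in WT and at 150, 38.8 and 389 in R98S clones. *Ms4a2* was at 146, 55.9 and 114 in WT and at 98.5, 32.7 and 87.9 in R98S clones. Neither *Cpa3* nor *Ms4a2* was called. The 6 stromal and endothelial markers summed to 7.17 to 19.3 and 17.6 to 22.5 with *Pdgfrb*, *Cdh5* and *Epcam* at no more than 3 reads. The part of these markers in the results on homing genes was not tested.

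*Cytip* was the homing gene that was higher in R98S clones, *Cd44*, *Ccr7* and *S1pr1* were lower, *Selplg*, *Cxcr4* and *Cyth1* overlapped between the groups, and *Klf2* and *Foxo1* were at or near 0. Of the 9 genes, 7 reached a mean of 10 normalized counts and were tested with limma among 11550 genes. With a call set at an adjusted p under 0.1, 1 was called higher and 3 lower in R98S clones, and the same 4 genes had values that did not overlap between the groups. Over all tested genes 23.9% were called, 10.7% as higher and 13.1% as lower, and 37.3% did not overlap. Because the 9 genes were chosen from results of this same contrast, nothing is read from their share. All log2 fold changes below are R98S minus WT on the log2(normalized count + 1) scale, whose median over all tested genes was -0.011.

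**Figure D1:**
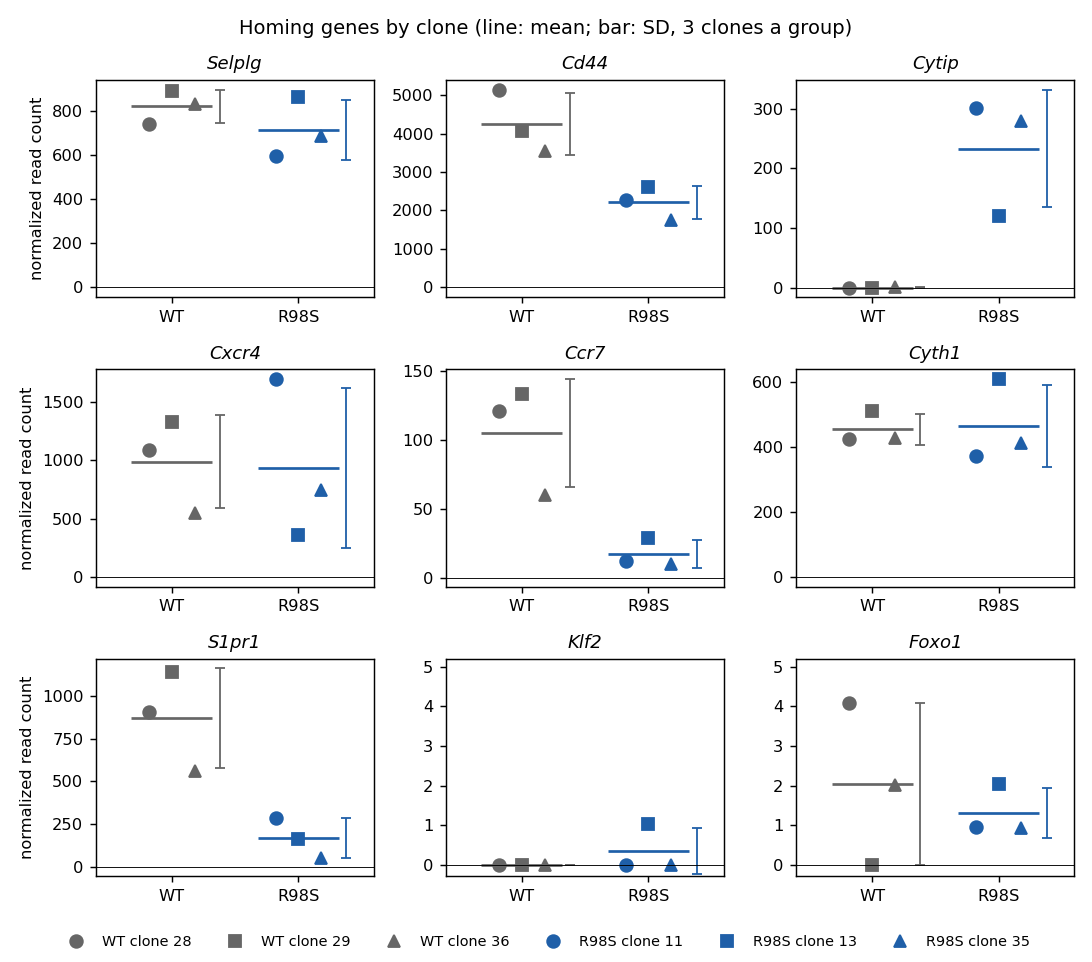
Normalized read counts (y axes, linear, a scale for each gene) of the 9 homing genes in 3 WT clones (grey) and 3 R98S clones (blue), 1 point per clone, with a line at the group mean and a bar of 1 SD on either side. The clones of the groups are apart for *Cd44*, *Ccr7*, *S1pr1* and *Cytip*, and *Klf2* and *Foxo1* lie between 0 and 4.10.

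Promoter sequence was read for 3 of these genes, to show the stretch in front of a RefSeq start of each. They were the gene that rose (*Cytip*), an adhesion gene that was lower (*Cd44*) and a receptor that spread widely between clones without being called (*Cxcr4*). RefSeq's promoter table (GRCm38.p6) held 6 of the 9 genes. The 250 bases before the RefSeq start are given 5′ to 3′ on the gene's strand, which is minus for all 3, with matches to CACCC, the core of KLF sites, on either strand in capitals. The windows are chr2:58160123-58160372 for *Cytip*, chr2:102901666-102901915 for *Cd44* and chr1:128592300-128592549 for *Cxcr4*. The *Cytip* start lies inside the annotated span of the gene. Counts per gene do not show which start the R98S clones use, and this was not tested.
Cytip: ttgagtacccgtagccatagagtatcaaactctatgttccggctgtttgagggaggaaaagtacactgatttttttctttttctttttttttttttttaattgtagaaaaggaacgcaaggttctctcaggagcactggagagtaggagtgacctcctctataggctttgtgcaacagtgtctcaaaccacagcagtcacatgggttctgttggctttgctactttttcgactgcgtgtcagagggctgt
Cd44: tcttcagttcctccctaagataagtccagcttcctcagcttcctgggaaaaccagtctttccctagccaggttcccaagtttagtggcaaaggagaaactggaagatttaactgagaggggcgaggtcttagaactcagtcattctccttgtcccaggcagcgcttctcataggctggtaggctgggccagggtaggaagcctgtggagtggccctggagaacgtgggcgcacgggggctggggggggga
Cxcr4: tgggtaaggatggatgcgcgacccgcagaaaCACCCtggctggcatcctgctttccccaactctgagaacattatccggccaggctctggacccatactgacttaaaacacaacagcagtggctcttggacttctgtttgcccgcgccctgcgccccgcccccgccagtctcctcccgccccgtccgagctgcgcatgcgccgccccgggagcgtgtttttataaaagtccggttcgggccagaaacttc
The *Cxcr4* window held 1 match to CACCC, and the *Cytip* and *Cd44* windows held 0. GTAAACA, a core of FOXO sites, was in none of the 3 on either strand. Over 32851 windows of the same length, 52.0% held CACCC and 3.17% held GTAAACA. *Cxcr4* had 19 CG dinucleotides in the window, and *Cytip* and *Cd44* 5 each, against a median of 6 over all windows. These matches are letters in a window and were not tested as sites.

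Among adhesion molecules, *Cd44*, the receptor for the matrix glycan hyaluronan and a carrier of selectin ligands, was at 5147, 4064 and 3556 normalized counts in WT clones 28, 29 and 36. In R98S clones 11, 13 and 35 it was at 2278, 2609.7 and 1759. Every R98S clone was below the lowest WT clone. The means were 4256 ± 813 and 2215 ± 429 (SD, n = 3 each), 1.92-fold lower in R98S clones, with a log2 fold change of -0.94 (SE 0.18, 95% interval -1.36 to -0.52). *Selplg*, which encodes the main protein scaffold of P-selectin ligands on leukocytes, was at 741, 893 and 833 in the WT and at 596, 864 and 688 in the R98S clones in the same order. R98S clone 13 lay within the WT range and the other 2 R98S clones below it. Its log2 fold change was -0.21 (SE 0.16, 95% interval -0.59 to 0.16) and it was not called. *Cd44* lies at chr2:102811141-102901665 and *Selplg* at chr5:113818536-113832644, both on the minus strand of GRCm38.

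Most enzymes and partners of these molecules had smaller log2 fold changes than *Cd44*, and *Gcnt1* had a larger one. The lists of other genes, here and below, were chosen with earlier results of these data known. Their counts and adjusted p are therefore a description. For each list the share to compare is that over all tested genes: 23.9% called, 10.7% higher and 13.1% lower. Of 17 other genes for selectin ligand scaffolds and glycosylation, 12 were tested, 3 were called lower and 0 higher, with 5 at an unadjusted limma p under 0.05 in either direction. The list's median log2 fold change was -0.29. *Gcnt1*, which starts the core-2 branch on which selectin ligands are built, fell from 10516 ± 1443 to 4787 ± 732 normalized counts (log2 difference -1.14 with an SE of 0.15, adjusted p = 0.0035 by limma). *St3gal4*, a sialyltransferase of the same glycans, fell 1.85-fold, from 4099 ± 1053 to 2220.4 ± 185 (log2 difference -0.86 with an SE of 0.18, adjusted p = 0.0196 by limma). *B4galt1*, which adds the galactose that is later sialylated, was 1.31-fold lower (adjusted p = 0.0891 by limma, 0.0564 to 0.263 over the alternative settings). Of 11 genes for hyaluronan and Cd44 partners, 9 were tested and 3 were called lower and 0 higher, with 4 at an unadjusted limma p under 0.05. The 3 called were *Srgn*, a proteoglycan that Cd44 binds, with a log2 difference of -0.62 (adjusted p = 0.0639 by limma, 0.01997 to 0.156 over the alternatives), and *Msn* and *Ezr*, which tie the tails of Cd44 and Selplg to actin. *Msn* was 1.36-fold lower (adjusted p = 0.0746 by limma, 0.0192 to 0.228) and *Ezr* 1.27-fold lower (adjusted p = 0.0819 by limma, 0.0501 to 0.283). The median of that list was -0.30.

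Both chemokine receptors were expressed, at different levels and with different patterns. *Cxcr4*, the receptor for the bone marrow chemokine Cxcl12, was at 1092, 1326 and 551 in WT clones 28, 29 and 36 and at 1696, 361 and 744 in R98S clones 11, 13 and 35. The highest and the lowest of the 6 values both came from R98S clones. The highest clone was 2.40 times the lowest in WT and 4.70 times in R98S, and the means were 989.7 ± 397 and 934 ± 687 (SD, n = 3 each). Its log2 fold change of -0.27 (SE 0.53, 95% interval -1.49 to 0.96) was not called, and it was 0.28 without R98S clone 13. *Ccr7*, the receptor for the lymph node chemokines Ccl19 and Ccl21a, was at 121, 133 and 60.05 in WT and at 12.2, 28.6 and 10.2 in R98S clones. The highest R98S clone was below the lowest WT clone. The means were 105 ± 39.2 and 17.0 ± 10.1, 6.17-fold lower in R98S clones, with a log2 fold change of -2.61 (SE 0.46, 95% interval -3.67 to -1.55). The R98S values of *Ccr7* rest on 11 to 28 reads per library. *Cxcr4* lies at chr1:128588199-128592293 and *Ccr7* at chr11:99144196-99155077, both on the minus strand.

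The ligands of both receptors had few or no assigned reads in these cells. *Ccl19* and *Ccl21a* had 0 reads in every clone, which allows up to 3 reads, or 2.78 to 3.22 normalized counts, per library. *Cxcl12* was at 3.10 ± 0.113 in WT and 4.79 ± 2.44 in R98S clones, too low to be tested. Of 23 other chemokine receptors and homing chemokines, 7 were tested, 1 was called lower and 0 higher, with that same gene at an unadjusted limma p under 0.05, and the median was 0.19. The called gene was *Ccr1*, a receptor for inflammatory chemokines, at 2270.3, 1758 and 1666 in WT and 74.1, 149.0 and 67.5 in R98S clones. It fell 19.6-fold (log2 difference -4.36 with an SE of 0.29, adjusted p = 0.00016 by limma). Of 22 genes that carry or end the signal of such receptors, 20 were tested, 7 were called lower and 0 higher, with 8 at an unadjusted limma p under 0.05 and a median of -0.14. *Rgs2*, which switches off G proteins, fell from 691 ± 152 to 115 ± 26.2 (log2 difference -2.57 with an SE of 0.23, adjusted p = 0.000493 by limma). *Elmo1*, which links the receptors to Rac, was 1.76-fold lower (adjusted p = 0.0370 by limma, 0.00117 to 0.116 over the alternatives), and *Arrb1*, a beta-arrestin, 1.54-fold lower (adjusted p = 0.0934 by limma, 0.0128 to 0.216).

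*S1pr1*, the egress receptor, was at 908, 1139 and 560.4 in WT clones 28, 29 and 36. In R98S clones 11, 13 and 35 it was at 285, 160.2 and 52.7. No R98S clone reached the lowest WT clone, and the R98S clones differed among themselves by 5.41 times, against 2.03 times in WT. The means were 869 ± 291 and 166 ± 116 (SD, n = 3 each), 5.23-fold lower in R98S clones, with a log2 fold change of -2.62 (SE 0.55, 95% interval -3.90 to -1.35). Without R98S clone 35, the lowest of all 6, the log2 fold change was -1.96. *S1pr1* lies at chr3:115710433-115715072 on the minus strand. The noncoding RNA gene *Gm9889* starts 78 bases away on the plus strand, at chr3:115715150-115716728, and shares no exon with it. It was at 64.5, 59.1 and 27.0 in WT and 9.38, 12.2 and 2.78 in R98S clones, again without overlap, with WT clone 36 the lowest of its group and R98S clone 35 the lowest of all, as for *S1pr1*. The difference was -2.58 on the log2 scale (SE 0.56, adjusted p = 0.0225 by limma, 0.00161 to 0.0819 over the alternatives). *Gm9889* was singled out after its values were seen.

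Other genes of the sphingosine 1-phosphate pathway and of tissue egress moved in both directions. Of 19, 12 were tested, 2 were called higher and 2 lower, and the median was -0.13. *Cd69*, whose protein binds S1pr1 and removes it from the surface, was at 5379, 6582 and 13241 in WT and at 1424, 188 and 482 in R98S clones. The means were 8401 ± 4235 and 698 ± 646 (log2 difference -3.94 with an SE of 0.66, adjusted p = 0.00915 by limma). The log2 fold change was -4.69 without R98S clone 11, -3.23 without R98S clone 13, and -2.84 without WT clone 36 and R98S clone 13. *Gpr183*, an oxysterol receptor that positions B cells in follicles, rose from 12.3 ± 4.95 to 139 ± 30.9 (log2 difference 3.43 with an SE of 0.34, adjusted p = 0.000988 by limma). *S1pr4*, a lymphoid relative of *S1pr1*, was 1.68 times as high in R98S clones (118 ± 26.9 and 199 ± 21.1, adjusted p = 0.0548 by limma, 0.0316 to 0.163 over the alternatives). *S1pr2*, a relative that restrains migration, was at 466 ± 65.1 and 423 ± 6.86, and differed by -0.13 on the log2 scale (SE 0.15, adjusted p = 0.587 by limma). The remaining receptors of the family, *S1pr3* and *S1pr5*, had at most 3 reads in every clone and were not tested.

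**Figure D2:**
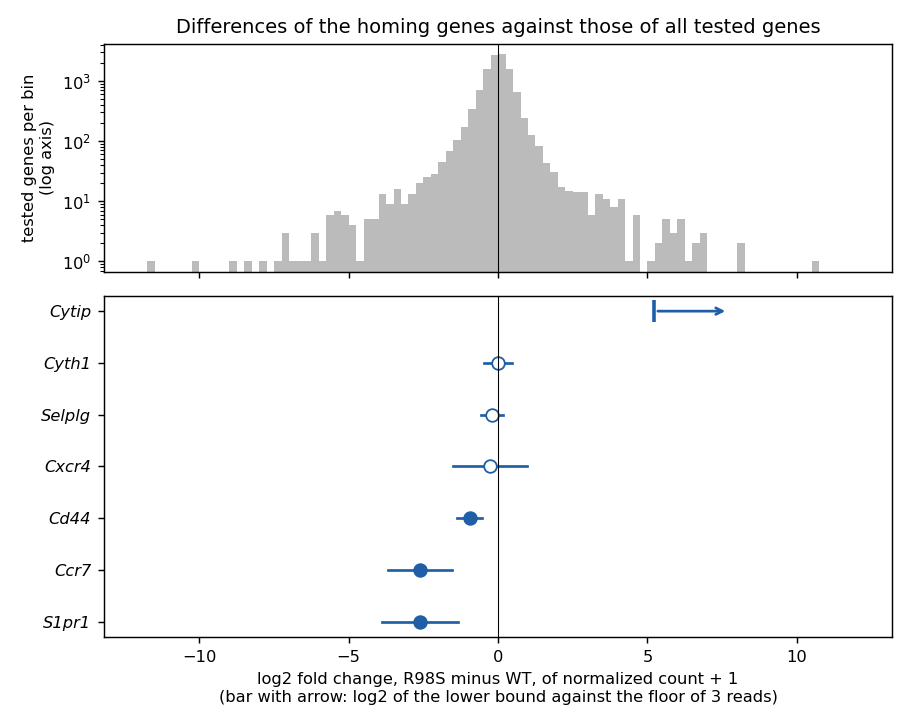
Upper panel, number of tested genes (log axis) by log2 fold change, R98S minus WT, for all 11550 tested genes. Lower panel, log2 fold change on the same x axis of the 7 homing genes tested, with 95% intervals (filled if called) except for *Cytip*, drawn as the log2 of its lower bound (5.23) with an arrow. *Ccr7* and *S1pr1* are at -2.61 and -2.62, and the intervals of *Cyth1*, *Selplg* and *Cxcr4* cross 0.

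The transcription factors known to drive homing receptors were close to undetected. *Klf2*, at chr8:72319033-72321656 on the plus strand, had 0 reads in 5 clones and 1 read in R98S clone 13. *Foxo1*, at chr3:52268336-52353221 on the plus strand, had 4, 0 and 2 reads in WT clones 28, 29 and 36 and 1, 2 and 1 reads in R98S clones 11, 13 and 35. A count of 0 allows up to 3 reads per library, so only the WT clone 28 value of *Foxo1* is above that floor, and no fold change is given for either gene. *Foxo1* shares 674 exon bases with the antisense gene *Gm20402*. Both factors were this low in every clone, and any part of them in the levels of *S1pr1* and *Ccr7* was not tested. Of 13 relatives and regulators of these factors, 8 were tested, 3 were called lower and 0 higher, with 4 at an unadjusted limma p under 0.05, and the median was -0.30. *Klf6*, a factor of wide expression, fell 2.01-fold, from 5935 ± 1218 to 2950.1 ± 557 (log2 difference -1.01 with an SE of 0.18, adjusted p = 0.0115 by limma). *Mef2a*, a regulator of Klf genes, fell 1.48-fold (log2 difference -0.55 with an SE of 0.12, adjusted p = 0.0196 by limma), and *Klf13* was 1.35-fold lower (adjusted p = 0.0826 by limma, 0.0179 to 0.232 over the alternatives). The Foxo relatives were present: *Foxo3* at 2031 ± 192 and 2127 ± 108 (log2 difference 0.07 with an SE of 0.11, adjusted p = 0.701 by limma) and *Foxo4* at 1221 ± 108 and 1049 ± 146 (log2 difference -0.22 with an SE of 0.14, adjusted p = 0.308 by limma). *Klf3* was at 12.9 ± 7.17 and 18.8 ± 4.66 (adjusted p = 0.406 by limma), and *Klf4* had no more than 1 read in any clone.

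Cyth1 and Cytip act on the integrin LFA-1 (Itgal with Itgb2). Cyth1 (cytohesin-1) is an exchange factor for Arf proteins that binds the Itgb2 tail and promotes adhesion, and Cytip is a scaffold that binds cytohesin-1 and draws it away from the membrane. *Cytip* had 1, 0 and 2 reads in WT clones 28, 29 and 36. In R98S clones 11, 13 and 35 it was at 300.2, 120.4 and 279 normalized counts, a mean of 233 ± 98.3 (SD, n = 3). All WT clones were at or below the floor of 3 reads and all R98S clones far above it. The lowest R98S clone was at least 37.4-fold higher than the highest WT floor of 3.22 normalized counts, and this bound is set by R98S clone 13. It was 86.8-fold without that clone. The fitted log2 fold change is no bound, since it depends on the pseudocount and the tool: it was 6.90 with a pseudocount of 1, 7.45 with 0.5, 5.22 with 5 and 7.83 with DESeq2. *Cyth1* was at 423, 509 and 427 in WT and 371, 607 and 411 in R98S clones, and the WT values lay inside the R98S range. Its log2 fold change was 0.0021 (SE 0.20, 95% interval -0.46 to 0.47). *Cytip* lies at chr2:58129137-58195532 and *Cyth1* at chr11:118132019-118248592, both on the minus strand.

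Relatives of this pair differed less than *Cytip*. All 15 genes for the other cytohesins, the Arf cycle and relatives of Cytip were tested, 2 were called lower and 0 higher, with 3 at an unadjusted limma p under 0.05, and the median was -0.10. *Tamalin* (listed as *Grasp*), the closest relative of *Cytip*, was at 142 ± 19.1 and 120.4 ± 36.6 (log2 difference -0.28 with an SE of 0.27, adjusted p = 0.512 by limma). The log2 fold changes of *Cyth2*, *Cyth3* and *Cyth4* were -0.11, -0.24 and -0.24, with adjusted p by limma of 0.550, 0.534 and 0.277. Called were *Iqsec1*, an Arf6 exchange factor, 1.38-fold lower (adjusted p = 0.0602 by limma, 0.0245 to 0.202 over the alternatives), and *Asap1*, which ends the Arf signal, 1.34-fold lower (adjusted p = 0.0513 by limma, 0.0219 to 0.136). Of 16 integrin adhesion genes, 15 were tested, 1 was called higher and 5 lower, and the median was -0.21. *Itgb7*, the beta chain of the gut-homing integrin, fell from 1452 ± 106 to 255 ± 70.4 (log2 difference -2.54 with an SE of 0.20, adjusted p = 0.000318 by limma). *Icam2*, an LFA-1 ligand, rose from 359 ± 29.5 to 642 ± 94.3 (log2 difference 0.83 with an SE of 0.16, adjusted p = 0.0137 by limma), while *Icam1*, another, was 1.55-fold lower (adjusted p = 0.0717 by limma, 0.0135 to 0.204 over the alternatives). The LFA-1 chains themselves were not called: *Itgal* was at 2261 ± 304 and 2767 ± 329 (adjusted p = 0.194 by limma) and *Itgb2* at 3672 ± 172 and 2961 ± 732 (adjusted p = 0.234 by limma).

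Over the 8 lists, 98 of 136 genes were tested, 3 were called higher and 26 lower (29.6% called in all), with a median log2 fold change of -0.18. Over all tested genes 23.9% were called, 10.7% higher and 13.1% lower. Because the lists were chosen with earlier results of these data known, nothing is read from their share. With WT clone 28 or R98S clone 11 left out, 11 of the listed genes were called lower, and with WT clone 29 left out 12. Of the calls in the lists over all 6 clones 10.3% were higher, which is a share of calls and not of tested genes. Over all tested genes, 1241 of 2755 calls were higher. That count over all genes is for the main fit and is not given for the alternative settings. With the libraries scaled to the same upper quartile, 6 were called higher and 22 lower, so that 21.4% were higher, and with DESeq2 7 and 27, or 20.6%. Of the 21 called genes named above from the lists, 10 kept their call under all 17 alternative settings (*Gcnt1*, *St3gal4*, *Ccr1*, *Rgs2*, *Cd69*, *Gpr183*, *Klf6*, *Mef2a*, *Itgb7* and *Icam2*), and 11 lost it under at least 1.

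**Figure D3:**
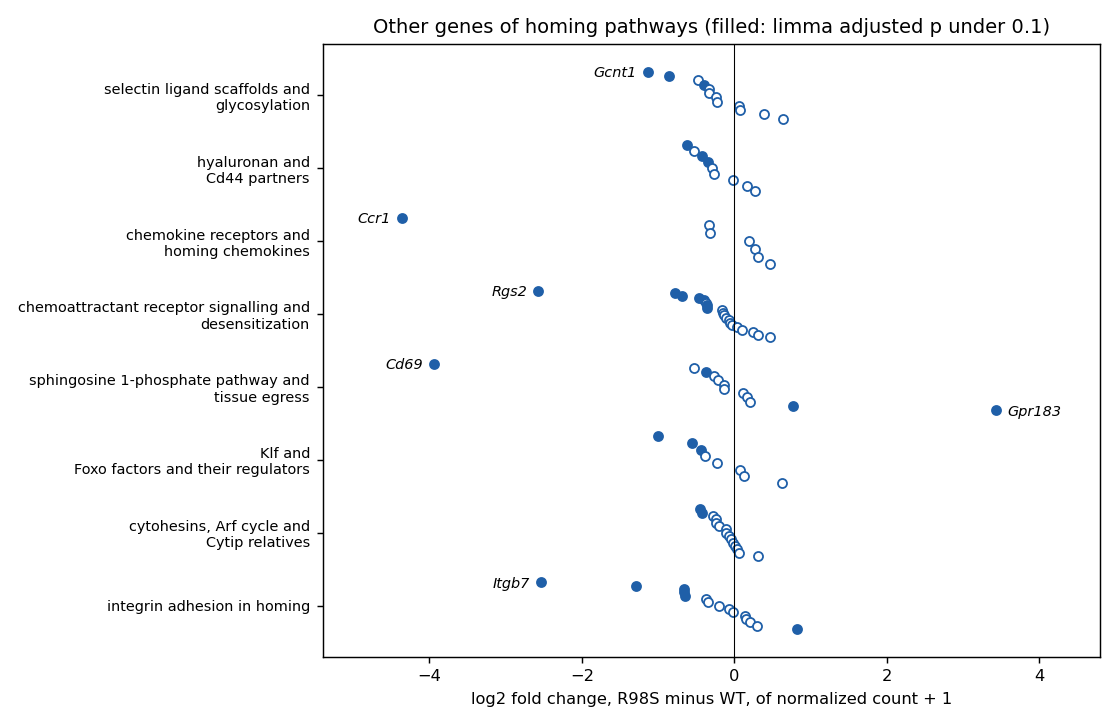
Log2 fold change, R98S minus WT (x axis, of normalized count + 1), of the 98 tested genes in 8 lists of homing pathways (y axis), 1 point per gene, filled where the limma adjusted p is under 0.1. Most filled points lie left of 0, with *Ccr1*, *Cd69*, *Rgs2* and *Itgb7* farthest, and *Gpr183* lies farthest right.

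Per kilobase of exon, and averaged over the 6 clones, the homing genes spanned from receptors of high level to factors near 0. *Cxcr4* was at 532 normalized counts per kb and *Cd44* at 477, and *Cxcr4* exceeded *Cd44* in 3 of 6 clones. *Selplg* (180.1 per kb) and *S1pr1* (169.95 per kb) were the next, with *Selplg* above *S1pr1* in 4 clones. By mean, *S1pr1* was above *Selplg* in WT clones (285 and 192) but far below it in R98S clones (54.5 and 168). The WT order depends on the length used. *Selplg* has 4.272 kb of merged exon but a longest transcript of 2.314 kb, against 3.046 kb by both measures for *S1pr1*. With the longest transcript as length, *Selplg* was above *S1pr1* in every clone of both groups. *Cyth1* followed at 117 per kb. *S1pr1* was above it in 3 clones and below it in the other 3. *Ccr7* was at 30.8 and *Cytip* at 17.4 per kb, with *Ccr7* the higher in 3 of 6 clones. *Foxo1* (0.192 per kb) and *Klf2* (0.0921 per kb) came last. Only *Cd44* over *Selplg* and *Cyth1* over *Ccr7* held in all 6 clones among neighbours in this order.

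**Figure D4:**
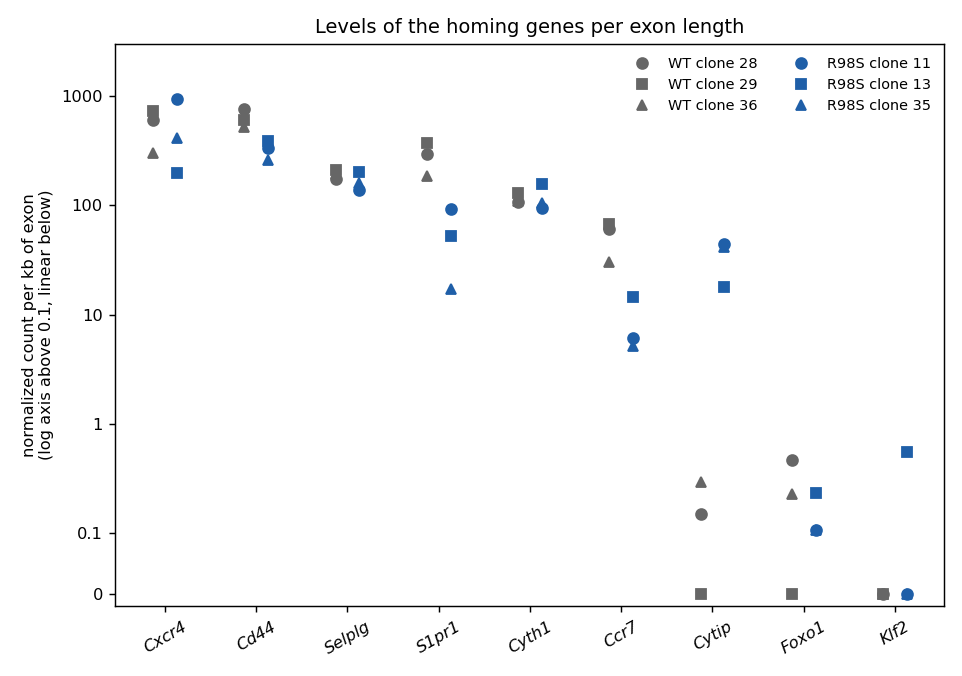
Normalized read count per kilobase of merged exon (y axis, log above 0.1 and linear below) of the 9 homing genes (x axis, ordered by the mean over 6 clones), 1 point per clone, WT in grey and R98S in blue. *Cxcr4* and *Cd44* are the highest, *S1pr1* and *Ccr7* drop between the groups, *Cytip* leaves the floor in R98S clones alone, and *Foxo1* and *Klf2* are at or below 0.553 in every clone.

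The spread between clones of one group was wide for the 3 chemoattractant receptors and narrower for the adhesion molecules and *Cyth1*. The residual SD on the log2 scale was 0.94 for *S1pr1*, 0.92 for *Cxcr4* and 0.69 for *Ccr7*, against a median of 0.20 over all tested genes. At least 93.8% of tested genes had a smaller SD than these 3. That comparison is over genes of all levels and was not matched for level. The R98S values of *Ccr7* rest on 11 to 28 reads per library. *Cytip* is left out here because its WT clones were at the floor, and its highest R98S clone was 2.49 times its lowest. *Cyth1* (0.29), *Cd44* (0.28) and *Selplg* (0.21) were nearer to the median, with 70.3%, 69.3% and 53.8% of tested genes below them. Among WT clones, clone 36 was the lowest for *Cd44*, *Cxcr4*, *Ccr7* and *S1pr1*, and clone 28 for *Selplg* and *Cyth1*. Among R98S clones, clone 35 was the lowest for *Cd44*, *Ccr7* and *S1pr1*, clone 13 for *Cxcr4* and *Cytip*, and clone 11 for *Selplg* and *Cyth1*. Without WT clone 36 and R98S clone 13, 1 higher and 3 lower calls were made among the members, with *Ccr7* at -3.40.

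**Figure D5:**
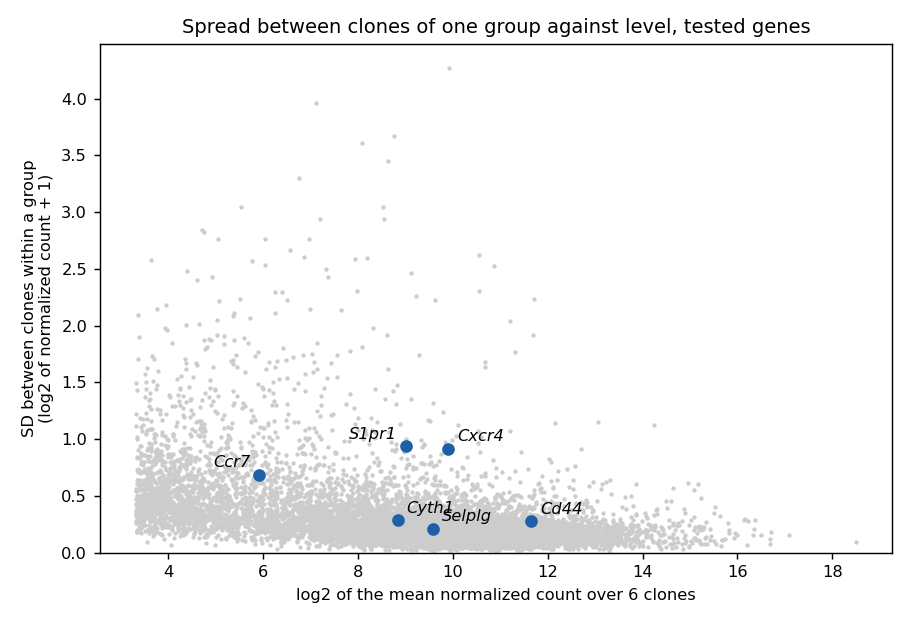
Residual SD between clones of one group (y axis, log2 of normalized count + 1) against log2 of the mean normalized count over 6 clones (x axis) for all tested genes (grey) and 6 homing genes (blue), without *Cytip*, whose WT clones were at the floor. *S1pr1*, *Cxcr4* and *Ccr7* lie between 0.69 and 0.94, and *Cyth1*, *Cd44* and *Selplg* between 0.21 and 0.29.

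Genes near the homing genes were read from their 10 nearest tested neighbours on each chromosome. The farthest of the 10 lay from 166 kb away (*Klf2*) to 2097 kb away (*Cytip*). Over all tested genes 10.7% were called higher and 13.1% lower. Around *Cytip*, 0 of 10 were called higher and 1 lower, with a median log2 fold change of -0.0028. Around *S1pr1*, 0 were called higher and 4 lower, with a median of -0.14. The 4 included *Gm9889* and *Olfm3*, the latter 585 kb away. For *Ccr7* the counts were 0 higher and 2 lower, and for *Cd44* 2 higher and 1 lower. They were 1 higher and 4 lower for *Selplg*, 0 and 2 for *Klf2*, 0 and 1 for *Foxo1*, and 0 and 0 for *Cyth1*. Around *Cxcr4*, 3 neighbours were called higher and 0 lower, although *Cxcr4* itself was not called. With 10.7% of all tested genes called higher, 0 of 10 around *Cytip* is near that share, and nothing is read from it.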

How the data were processed

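The deposited table holds, for 41255 genes and 6 clones, a signal that the authors made by dividing HTSeq read counts by DESeq2 size factors. The submitters' processing notes name TopHat, Bowtie2, SAMtools, HTSeq and DESeq2 with GRCm38 (mm10). The annotation and the strand setting of the counting are not given in the sources used here. The library kit marks strand. Each column's values were whole multiples of a step (0.92516 to 1.0746) within 0.001 for 100% of values, so reads were recovered. For WT clone 36 the step of 1.0008 is so near 1 that this says little.

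log2(normalized count + 1) was fitted with limma 3.58.1 (R 4.3.3, intensity trend, no covariate) over the 11550 genes with a mean of at least 10, with Benjamini-Hochberg adjustment over all of them and a threshold of 0.1. edgeR 4.0.16 and DESeq2 1.42.0 were run on the recovered reads. The fit was tested on simulated counts with the same variability setting for every gene. That test does not cover genes with a spread between clones as wide as that of *S1pr1*, *Cxcr4* and *Ccr7*. Intervals are 95% confidence intervals of the difference between group means. They use limma's moderated standard error, which draws on the spread between clones of this gene and of other genes. The members and the 8 pathway lists were chosen with earlier results of these data known, and no set test was run. Named were all members, up to 3 genes per list with the largest change among those called without overlap, fixed relatives and ligands, and *Rpl10*. An item of the marker lists is not reported here. Positions and exon lengths are from GENCODE vM21 (GRCm38), promoters from RefSeq (GRCm38.p6).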

Additional observations from a re-analysis of the deposited data

How the results depend on the processing

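Alternatives were the pseudocount, the filter on low values, the trend, the scaling, the threshold, edgeR, DESeq2, each clone left out, and, chosen after seeing the data, WT clone 36 and R98S clone 13 left out together. The members called stayed at 1 higher and 3 lower in each. Pathway genes called higher (3) became 5 with the same total, 6 with the same upper quartile, 7 with DESeq2, 6 without WT clone 36 and R98S clone 13, and 2 to 6 with 1 clone left out (6 without WT clone 36). Those called lower (26) became 17 without the trend and 13 at a threshold of 0.05. With 1 clone left out they were 11 to 24 (11 when WT clone 28 or R98S clone 11 was left out, 12 for WT clone 29). Without WT clone 36 and R98S clone 13 together they were 29. The share called over all tested genes is given for the main fit alone. These counts therefore cannot be set against the share over all genes under the same setting. The cause of these moves was not tested. Of 645 comparisons of 38 single genes, 565 kept direction and side of the threshold, 73 lost a call, 2 (*Cyth4*) gained one and 5 turned direction. The last were *Cxcr4*, at 0.28 when R98S clone 13 was left out (range -0.84 to 0.28 with 1 clone left out), and *Cyth1*, neither called. The latter was at -0.045 when WT clone 28 was left out, -0.038 for WT clone 36, -0.21 for R98S clone 13 (range -0.21 to 0.15) and -0.25 for the last 2 together. With the longest transcript as length, 2 members changed rank per kb, *Cd44* moving above *Cxcr4*. *Selplg* then also lay above *S1pr1* in WT clones. Depth limits *Klf2* and *Foxo1*, and the WT level of *Cytip*, to at most a few reads. No paired analysis was possible because the clone numbers differ between the groups.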
